A study of Homo sapiens with 30 samples.

Results

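Palmul-tang and Samul-tang, a pair of tonifying herbal formulas of East Asian medicine, were compared at their highest dose in HepG2 cells, a human liver cancer line. The comparison rests on 5 of the 30 libraries: 3 of Palmul-tang (replicates 1, 2 and 3) and 2 of Samul-tang (replicates 2 and 3), chosen by formula and dose as labelled. Cells of every group used here had 24 h of exposure. Both formulas were ethanol extracts at 500 µg/mL, and the same formulas at 100 (medium) and 20 (low) µg/mL, with the same numbers of libraries, are set beside them. Also shown are 3 libraries of vehicle, 0.1% DMSO, and single libraries of Sagunja-tang ethanol extract at 500, 100 and 20 µg/mL (replicate 3 of each), of which the one at 500 µg/mL is meant where no dose is named. Sibjeondaebo-tang ethanol extract, with 3 libraries at each of these doses, entered the fit of the spread but is not compared here. Gene expression was measured by paired-end RNA sequencing of a directional library. The question is which transcripts differ between a formula and the larger formula that contains its herbs.

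In traditional use, Samul-tang holds Angelica, Cnidium, Paeonia and Rehmannia, and Sagunja-tang holds ginseng, Atractylodes, Poria and licorice. Palmul-tang joins these herb sets. The sources used here do not say how much of each herb the extracts held, so an equal dose by weight does not mean an equal amount of the shared herbs. Liver cells answer plant compounds through several known routes. The aryl hydrocarbon receptor (AHR) is a ligand-activated factor that binds DNA at a short core element and switches on enzymes such as CYP1A1. The ERK kinase cascade switches on immediate early genes such as EGR1 within the cell's general growth response, together with genes that damp the cascade. NF-kB drives survival and inflammatory genes, several of which feed back on it, and FXR, the bile acid receptor encoded by NR1H4, sets bile acid synthesis and export.

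Promoter sequence is given for 5 genes on which the results turn, so that matches to the short motifs named below can be seen in place. CYP1A1 and AKAP12 were the genes whose dose response differed between the formulas, EGR1 was the immediate early gene with the smallest adjusted p, and BIRC3 and TNFAIP3 were the called genes of the NF-kB list. Each sequence is the 250 bases before the RefSeq start, read 5′ to 3′ on the gene's strand, on GRCh38.p14. Capitals mark the AHR element core GCGTG in CYP1A1 (chr15:74725529-74725778, minus strand) and AKAP12 (chr6:151239717-151239966, plus strand). In EGR1 (chr5:138465229-138465478, plus strand) they mark the CArG box, the element bound by serum response factor. In BIRC3 (chr11:102317234-102317483, plus strand) and TNFAIP3 (chr6:137867009-137867258, plus strand) they mark a kappaB form, GGG followed by any 2 bases and TTTCC, which here lies on the other strand and so reads GGAAA, any 2 bases and CCC.
CYP1A1: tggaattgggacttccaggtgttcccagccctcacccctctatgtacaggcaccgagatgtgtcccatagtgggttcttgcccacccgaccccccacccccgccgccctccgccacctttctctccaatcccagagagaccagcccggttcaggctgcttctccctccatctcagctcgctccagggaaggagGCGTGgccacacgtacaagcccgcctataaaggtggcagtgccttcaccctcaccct
AKAP12: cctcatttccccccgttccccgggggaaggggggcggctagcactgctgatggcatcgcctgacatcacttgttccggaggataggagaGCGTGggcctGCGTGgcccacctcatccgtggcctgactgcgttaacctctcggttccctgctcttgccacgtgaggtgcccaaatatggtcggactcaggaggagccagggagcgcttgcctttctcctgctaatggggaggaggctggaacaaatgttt
EGR1: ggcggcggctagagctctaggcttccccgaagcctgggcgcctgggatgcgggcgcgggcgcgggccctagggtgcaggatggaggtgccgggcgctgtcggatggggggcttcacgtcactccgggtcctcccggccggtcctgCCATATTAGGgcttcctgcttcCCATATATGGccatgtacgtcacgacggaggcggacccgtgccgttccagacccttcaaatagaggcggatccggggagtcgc
BIRC3: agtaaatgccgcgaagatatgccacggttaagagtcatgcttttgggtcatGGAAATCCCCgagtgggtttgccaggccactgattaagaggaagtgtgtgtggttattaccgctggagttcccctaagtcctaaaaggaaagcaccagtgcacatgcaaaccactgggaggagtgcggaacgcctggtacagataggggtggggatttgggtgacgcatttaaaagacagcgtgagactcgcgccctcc
TNFAIP3: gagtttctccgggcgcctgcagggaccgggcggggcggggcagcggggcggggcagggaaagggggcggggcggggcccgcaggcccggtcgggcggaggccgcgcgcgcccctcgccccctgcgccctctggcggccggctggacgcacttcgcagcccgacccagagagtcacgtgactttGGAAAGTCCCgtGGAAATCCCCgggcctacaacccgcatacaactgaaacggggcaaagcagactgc
The first base of the match lay 57 bases before the start in CYP1A1, and 161 and 151 bases before it in AKAP12. It lay 105 and 83 bases before the start in EGR1, 199 in BIRC3, and 67 and 55 in TNFAIP3. Both strands were searched, and no motif was searched in any other window. The AHR core was present in 31.9% of the 27305 RefSeq promoter windows searched, each cut to the same 250 bases. The kappaB form was present in 1.73% and the CArG box in 1.14%. Of the 24 called genes with a window, 8 held the AHR core, 2 held the kappaB form and 3 held the letters of a CArG box. CYP1A1 and AKAP12 held the letters of a CArG box as well. In CYP1A1 these letters are CCTATAAAGG and contain TATAAA, the letters of a TATA box. BIRC3, DUSP6, SOS1, SLC51B, ITGA2 and FREM1 also held the AHR core. A match is a description of the letters and not evidence of binding.

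The 5 libraries held 21570416 to 37707232 expected counts, and levels are given as CPM, counts scaled to library size with TMM factors. The cell type marker levels in this paragraph are CPM scaled to library size without those factors. Mitochondrial transcripts took 14.9% to 16.9% of counts with Palmul-tang high and 15.4% to 16.7% with Samul-tang high. Hepatocyte markers were present in every library, with none of 10 at 0 and a summed level of 57450 to 60480 CPM. Fibroblast markers summed to 3.99 to 5.36 CPM, nearly all of it PDGFRB, and endothelial markers to 7.96 to 9.93 CPM, while blood cell markers reached 1583 to 1799 CPM, most of it LYZ at 1516 to 1720 CPM. Markers of other epithelial lines summed to 122.8 to 149.8 CPM, nearly all of it EPCAM. In bulk RNA, fewer cells of a kind and less RNA per cell cannot be told apart. The sample names give Samul-tang and Sagunja-tang a common prefix, Palmul-tang and Sibjeondaebo-tang another and vehicle its own, while all titles name the same batch. Formula and library set therefore cannot be told apart at a given dose. The labels do not say whether replicates came from separate cultures, and the p-values reflect only the spread between libraries, which may be technical. That spread was estimated from 27 libraries of 10 groups, the medium and low doses, vehicle and Sibjeondaebo-tang included.

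The formulas differed in few genes at the high dose. Of 16083 genes tested with edgeR's quasi-likelihood test, 30 passed an adjusted p of 0.05 (0.187%), 23 of them higher with Palmul-tang (0.143%) and 7 lower (0.0435%). The higher genes included the AHR targets CYP1A1 and ALDH3A1, the immediate early genes EGR1 and FOSL2, and the NF-kB targets BIRC3 and TNFAIP3. The lower genes included NR1H4 and CEBPA, which encode liver regulators, and HAMP, which encodes the iron hormone hepcidin. Only 3 of the 30 (CYP1A1, LRRC25 and HAMP) had a log2 fold change of 1 or more in size, and the median size was 0.346. In all 30 genes the Palmul-tang libraries did not overlap the Samul-tang libraries. Over all tested genes, 11.4% had every Palmul-tang library above every Samul-tang library and 11.6% had every one below. At an unadjusted p under 0.05 there were 1189 genes.

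The count rested on single libraries. It was 2 without Samul-tang replicate 2, 7 without Samul-tang replicate 3, 14 without Palmul-tang replicate 1, 6 without Palmul-tang replicate 2 and 21 without Palmul-tang replicate 3. CYP1A1 and AKAP12 passed in all 5 of these fits, EGR1, SLC16A6 and NEDD9 in 4, and 11 of the 30 in none. The single fit that EGR1, SLC16A6 and NEDD9 failed was that without Samul-tang replicate 2, with adjusted p-values of 0.173, 0.0646 and 0.243. With only the 5 compared libraries in the fit, 25 genes passed, of which 16 were among the 30. The calls lost there included HAMP, NR1H4, SLC51B, TNFAIP3, FOSL2, TRIB1, ERRFI1, MBL2, FICD, PVR, ITGA2, FREM1 and LRRC25, with adjusted p from 0.0555 for MBL2 to 0.186 for SLC51B.

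**Figure D1:**
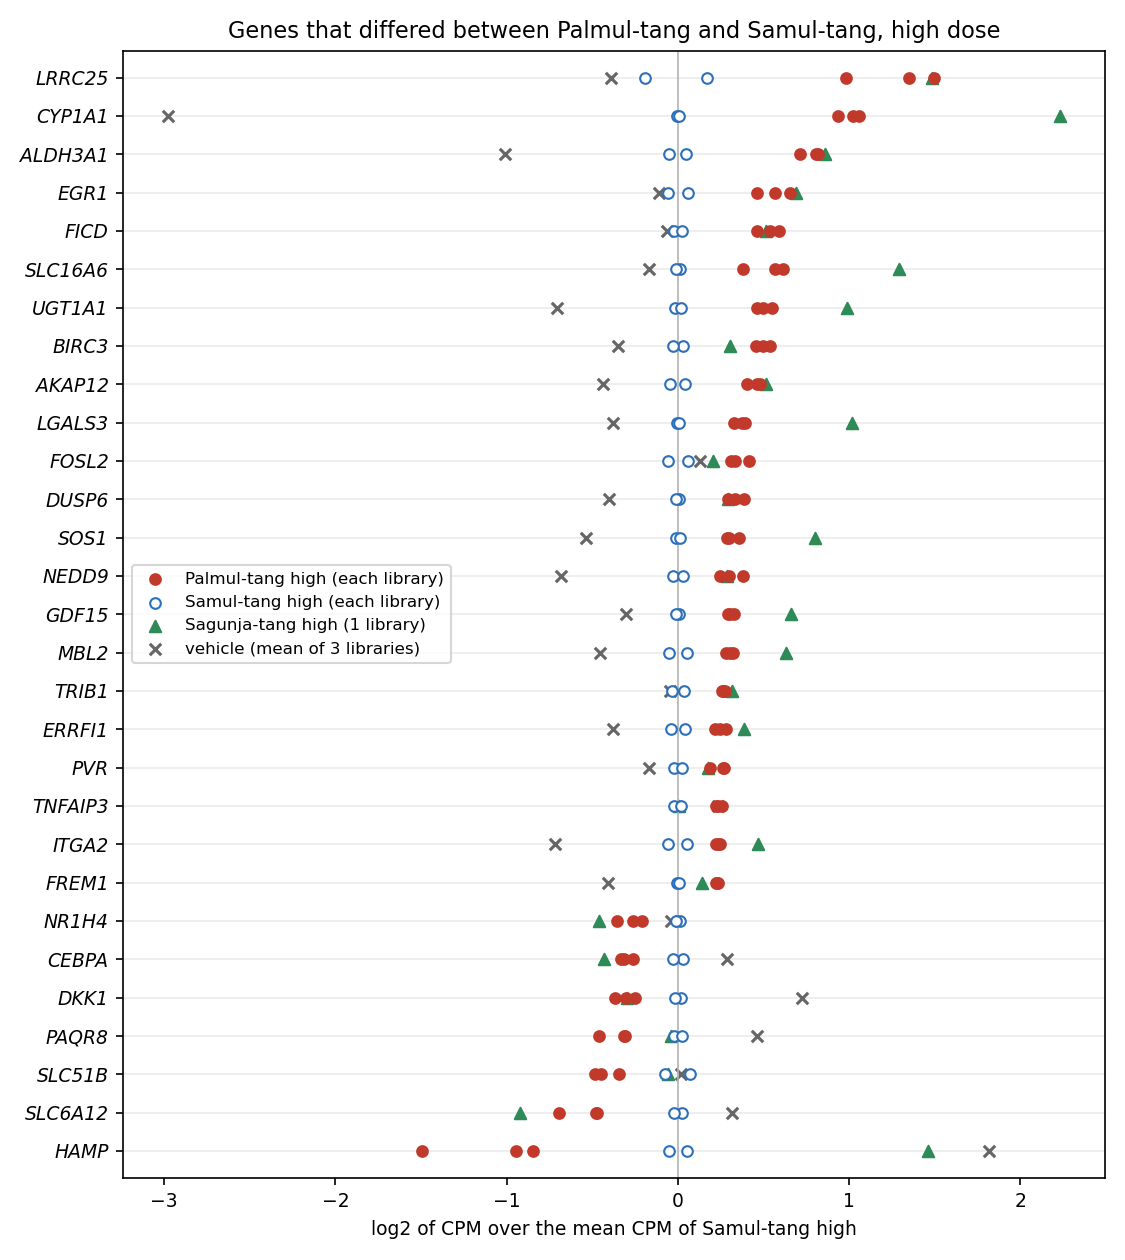
CPM of each library over the mean CPM of the 2 Samul-tang high libraries, on a log2 axis, for 29 of the 30 genes called between Palmul-tang high and Samul-tang high; filled circles are Palmul-tang libraries, open circles Samul-tang libraries, triangles the single Sagunja-tang library and crosses the mean of 3 vehicle libraries. The Palmul-tang points lie right of both Samul-tang points in 22 of these genes and left of them in 7.

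CYP1A1, a cytochrome P450 that oxidises polycyclic aromatic compounds and the classic AHR target, had the smallest adjusted p (ENSG00000140465, chromosome 15, 74719542 to 74725610, GENCODE 29 on GRCh38 as for all positions below). It was at 184.8, 180.0 and 169.7 CPM in Palmul-tang replicates 1, 2 and 3, and at 88.4 and 89.1 CPM in Samul-tang replicates 2 and 3. All Palmul-tang libraries were thus about 2.01-fold higher, far outside the spread of either group, with a log2 fold change of 1.01 ± 0.082 (SE) and an adjusted p of 2.2e-08. Vehicle was at 9.57 to 12.5 CPM, so both formulas lay above it. The Sagunja-tang library was at 417.1 CPM, above every library of either formula.

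ALDH3A1, an aldehyde dehydrogenase and AHR target (chromosome 17, 19737984 to 19748943), was at 5.70, 5.65 and 5.31 CPM with Palmul-tang, against 3.35 and 3.13 CPM with Samul-tang. The log2 fold change was 0.78 ± 0.15 (SE, adjusted p 0.0126), and Sagunja-tang was at 5.87 CPM. Its call was lost without any one library except Palmul-tang replicate 3, with an adjusted p of 0.0625, 0.0627, 0.266 and 0.194 without Palmul-tang replicates 1 and 2 and Samul-tang replicates 2 and 3. Of the 11 AHR targets listed, 10 were tested, of which 2 were higher (0.143% over all genes) and none was lower. In 5 of the 10 every Palmul-tang library was above both Samul-tang libraries (11.4% over all genes). In none was every one below (11.6% over all genes). The median log2 difference of the 10 tested targets was 0.13, against -0.001 over all tested genes. CYP1A2, a liver enzyme of drug and caffeine metabolism, was at 0.694, 0.689 and 0.831 CPM against 0.378 and 0.177 CPM, a log2 of 1.37 that did not pass (95% interval 0.41 to 2.33, adjusted p 0.393). AHRR, the receptor's repressor (log2 0.13, interval -0.44 to 0.69), and TIPARP, another feedback inhibitor of the receptor (0.03, interval -0.09 to 0.16), did not pass.

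UGT1A1, the enzyme that conjugates bilirubin (chromosome 2, 233760248 to 233773299), was at 30.2, 31.4 and 29.6 CPM with Palmul-tang, against 21.2 and 21.7 CPM with Samul-tang. The log2 fold change was 0.51 ± 0.087 (SE, adjusted p 0.00453), and Sagunja-tang was at 42.5 CPM. The UGT1A genes share their last exons, so the estimated counts divide reads among them and this value is uncertain. Of 15 tested UGT and sulfotransferase genes, 4 had every Palmul-tang library above Samul-tang (26.7%, with 11.4% over all genes). Another 4 had every one below (26.7%, with 11.6% over all genes). UGT1A1 was the only member called (0.143% called higher over all genes). Without Palmul-tang replicate 2 and Samul-tang replicates 2 and 3 its adjusted p was 0.0504, 0.243 and 0.0806.

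EGR1, a zinc finger factor induced by growth signals (chromosome 5, 138465490 to 138469315), was at 31.8, 36.2 and 34.2 CPM with Palmul-tang, against 22.1 and 24.0 CPM with Samul-tang. Vehicle, at 20.2 to 22.6 CPM, was close to Samul-tang, and Sagunja-tang was at 37.3 CPM. The log2 fold change was 0.56 ± 0.087 (SE, adjusted p 0.00125). DUSP6, the phosphatase that switches off ERK (chromosome 12, 89347232 to 89353271), was at 149.8, 155.7 and 145.7 CPM against 119.7 and 118.2 CPM, with a log2 of 0.34 ± 0.055 (SE, adjusted p 0.00247). FOSL2, a subunit of the AP-1 factor (chromosome 2, 28392448 to 28417312), was at 19.9, 18.5 and 18.8 CPM against 15.5 and 14.3 CPM, with a log2 of 0.35 ± 0.076 (SE, adjusted p 0.0372). The 3 Palmul-tang libraries were above both Samul-tang libraries in each of these genes. DUSP6 was lost without Samul-tang replicate 2 or 3 (adjusted p 0.108 and 0.0806), and FOSL2 was lost without any one of the 5 libraries, with adjusted p from 0.0806 to 0.363.

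Of the 24 tested genes of the immediate early and ERK feedback list, 3 were higher (0.143% over all genes) and none was lower. In 10 genes Palmul-tang was above Samul-tang in every library (41.7%, with 11.4% over all genes). The median log2 difference of the list was 0.12. JUN, another AP-1 subunit, was at 22.8, 26.3 and 23.4 CPM against 19.7 and 18.1 CPM without passing in edgeR (log2 0.35, interval 0.18 to 0.52, adjusted p 0.0738), though DESeq2 called it. SPRY4, an inhibitor of the cascade, had a log2 of 0.21 (interval 0.09 to 0.34, adjusted p 0.229). FOS was low at 1.21 to 1.58 CPM, and MYC, a growth regulator, had a log2 of 0.11 (adjusted p 0.691). Further signalling genes were called outside the list. ERRFI1, a feedback inhibitor of the EGF receptor (chromosome 1, 8004404 to 8026308), was at 332.8, 325.1 and 318.4 CPM against 265.9 and 281.5 CPM, with a log2 of 0.25 ± 0.046 (SE, adjusted p 0.00922). SOS1, the exchange factor that loads Ras (chromosome 2, 38981396 to 39124345), was at 150.7, 158.4 and 151.9 CPM against 122.3 and 124.7 CPM, with a log2 of 0.31 ± 0.062 (SE, adjusted p 0.0171). TRIB1, a pseudokinase that targets C/EBP alpha for degradation (chromosome 8, 125430321 to 125438405), was at 83.1, 82.6 and 82.3 CPM against 67.3 and 70.4 CPM, with a log2 of 0.26 ± 0.051 (SE, adjusted p 0.0143). The Sagunja-tang library was at 357.9 CPM for ERRFI1, 215.2 for SOS1 and 85.7 for TRIB1. Without Samul-tang replicate 2 the adjusted p of these 3 genes was 0.534, 0.485 and 0.561. Without Samul-tang replicate 3 it was 0.0505, 0.147 and 0.0806, without Palmul-tang replicate 1 0.0594, 0.0512 and 0.0625, and without Palmul-tang replicate 2 0.0514, 0.109 and 0.0627.

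BIRC3, an inhibitor of apoptosis and NF-kB target (chromosome 11, 102317450 to 102339403), was at 11.1, 11.8 and 11.4 CPM with Palmul-tang, against 8.28 and 7.96 CPM with Samul-tang. The log2 fold change was 0.49 ± 0.088 (SE, adjusted p 0.0059), and Sagunja-tang was at 10.02 CPM. TNFAIP3, the A20 enzyme that damps NF-kB (chromosome 6, 137867188 to 137883312), was at 49.98, 50.7 and 49.5 CPM against 41.8 and 43.0 CPM, with a log2 of 0.24 ± 0.05 (SE, adjusted p 0.0309). For TNFAIP3 the Palmul-tang libraries sat at the vehicle level of 49.3 to 50.5 CPM, and it was Samul-tang that lay apart, with Sagunja-tang beside it at 42.6 CPM. Of 13 tested NF-kB and cytokine genes, these 2 were higher (0.143% over all genes) and none was lower. In 5 genes every Palmul-tang library was above Samul-tang (38.5%, with 11.4% over all genes). The median log2 difference of the list was 0.20. ICAM1, an adhesion molecule (log2 0.20, interval 0.09 to 0.31, adjusted p 0.164), and IL32 (0.23, interval 0.04 to 0.42, adjusted p 0.54) did not pass in edgeR, and DESeq2 called ICAM1. NFKBIA, the main inhibitor of NF-kB, had a log2 of -0.04 (interval -0.17 to 0.09). BIRC3 was lost without Samul-tang replicate 2 or 3 or Palmul-tang replicate 2 (adjusted p 0.173, 0.123 and 0.0514), and TNFAIP3 without any one of the 5 libraries (0.0668 to 0.62).

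AKAP12, a scaffold that anchors protein kinase A and C (ENSG00000131016, chromosome 6, 151239999 to 151358557), was at 276.7, 280.6 and 265.9 CPM with Palmul-tang, against 195.0 and 207.6 CPM with Samul-tang. The log2 fold change was 0.45 ± 0.052 (SE, adjusted p 9.4e-06), and the adjusted p was 0.00864 at most when any one library was left out. SLC16A6, a monocarboxylate transporter family member (chromosome 17, 68267026 to 68291267), was at 17.1, 17.6 and 15.0 CPM against 11.6 and 11.4 CPM, with a log2 of 0.53 ± 0.08 (SE, adjusted p 0.00112). The Sagunja-tang library was at 288.0 CPM for AKAP12 and 28.1 CPM for SLC16A6, above all libraries of both formulas.

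Further genes were higher with Palmul-tang. GDF15, a stress-induced secreted factor and p53 target, was at 230.3, 224.1 and 226.0 CPM against 184.3 and 182.1 CPM (log2 0.31 ± 0.062 SE, adjusted p 0.0224). LGALS3, which encodes galectin-3, was at 29.3, 28.4 and 29.6 CPM against 22.5 and 22.7 CPM (log2 0.36 ± 0.076 SE, adjusted p 0.03). MBL2, the mannose-binding lectin of complement, was at 49.4, 47.9 and 48.8 CPM against 38.1 and 40.9 CPM (log2 0.30 ± 0.059 SE, adjusted p 0.0143). In the Sagunja-tang library these genes were at 289.5, 45.7 and 61.2 CPM, each above every Palmul-tang and Samul-tang library. NEDD9, an adaptor of focal adhesions (log2 0.31), ITGA2, the alpha 2 integrin (0.23), PVR, a nectin-like surface receptor (0.24), FREM1, an extracellular matrix protein (0.23), and FICD, which modifies the ER chaperone BiP (0.53), also passed, with adjusted p from 0.00247 for NEDD9 to 0.046 for ITGA2. LRRC25 had the largest log2 value, 1.29 ± 0.28 (SE, adjusted p 0.0359), but from counts of 49, 30 and 29 against 17 and 20, so its size is imprecise. FICD, LGALS3, GDF15, PVR, ITGA2, FREM1 and LRRC25 were each lost without any one of the 5 libraries, and MBL2 without any one but Palmul-tang replicate 3, with adjusted p up to 0.922. PVR, NEDD9, ERRFI1, ITGA2, FREM1 and LRRC25 fell outside the rule for named genes and were chosen after their values were seen.

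Of 23 tested cholesterol genes, 8 had every Palmul-tang library below Samul-tang without passing (34.8%, with 11.6% over all genes). The median log2 difference of the list was -0.04, against -0.001 over all tested genes. Among the 8 were the synthesis enzymes MVD (log2 -0.26, adjusted p 0.27) and TM7SF2 (-0.23, adjusted p 0.188). HMGCS1, the enzyme of the mevalonate pathway that makes HMG-CoA, had a log2 of -0.01 (interval -0.11 to 0.09).

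Of the 7 genes lower with Palmul-tang, 2 belong to bile acid handling. NR1H4, which encodes FXR (chromosome 12, 100473708 to 100564413), was at 42.7, 40.1 and 44.3 CPM with Palmul-tang, against 51.7 and 50.8 CPM with Samul-tang, a log2 of -0.28 ± 0.053 (SE, adjusted p 0.0127). SLC51B, the beta subunit of the bile acid exporter OST (chromosome 15, 65045370 to 65053396), was at 6.37, 5.93 and 5.77 CPM against 8.5 and 7.67 CPM, a log2 of -0.42 ± 0.092 (SE, adjusted p 0.0448). Vehicle was at 49.4 to 50.5 CPM for NR1H4 and 7.64 to 8.52 CPM for SLC51B, close to Samul-tang in both genes, and the Palmul-tang libraries were below it. Of 14 tested bile acid genes, these 2 were lower (0.0435% over all genes) and none was higher. In 4 genes every Palmul-tang library was below Samul-tang (28.6%, with 11.6% over all genes), and in 1 above (7.1%, with 11.4%). CYP7A1, which catalyses the slowest step from cholesterol to bile acids, was at 3.38, 3.69 and 3.65 CPM against 5.21 and 4.19 CPM (log2 -0.40, interval -0.73 to -0.07, adjusted p 0.532), and NR0B2, an FXR target that represses CYP7A1, had a log2 of 0.12 (interval -0.03 to 0.26). SLC51A, the other subunit of the exporter, had a log2 of -0.09 (interval -0.26 to 0.08). NR1H4 passed without Palmul-tang replicate 3 but not without any other library (adjusted p 0.0516 to 0.493), and SLC51B was lost without any one of the 5 (0.0719 to 0.922).

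HAMP, the hormone that lowers iron export (ENSG00000105697, chromosome 19, 35280716 to 35285143), was at 0.905, 0.62 and 0.969 CPM with Palmul-tang, against 1.81 and 1.68 CPM with Samul-tang. Counts were 30, 18 and 21 against 67 and 57, and the log2 fold change was -1.08 ± 0.22 (SE, adjusted p 0.03). Vehicle was at 5.59 to 6.58 CPM and Sagunja-tang at 4.81 CPM, so the Sagunja-tang library lay closer to vehicle than any library of Palmul-tang high or Samul-tang high did. HAMP is a target of BMP signalling, and ID3 (log2 -0.33, adjusted p 0.357) and SMAD7 (-0.33, adjusted p 0.395), further targets of it, had every Palmul-tang library below Samul-tang without passing. Others lay the opposite way, with BMP4, a ligand of the pathway (log2 0.23, adjusted p 0.366), and BAMBI, a decoy receptor (0.25, adjusted p 0.503), higher in every Palmul-tang library without passing. In 4 of 9 tested BMP and SMAD genes every Palmul-tang library was below Samul-tang (44.4%, with 11.6% over all genes). In 2 every one was above (22.2%, with 11.4% over all genes). Of the 9, HAMP was the only one called (0.0435% called lower over all genes). The call was lost without Palmul-tang replicate 1 or 2 or Samul-tang replicate 2 or 3 (adjusted p 0.073, 0.267, 0.591 and 0.126).

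SLC6A12, a carrier of betaine and GABA (chromosome 12, 190077 to 214570), was at 8.03, 6.89 and 7.98 CPM with Palmul-tang against 11.3 and 10.97 CPM, a log2 of -0.55 ± 0.1 (SE, adjusted p 0.00844). CEBPA, a transcription factor of hepatocyte identity (chromosome 19, 33299934 to 33302564), was at 66.3, 63.2 and 64.0 CPM against 81.2 and 77.9 CPM, a log2 of -0.30 ± 0.054 (SE, adjusted p 0.0059). DKK1, a secreted Wnt antagonist (chromosome 10, 52314296 to 52318042), was at 62.9, 60.6 and 57.9 CPM against 75.6 and 73.9 CPM, a log2 of -0.30 ± 0.066 (SE, adjusted p 0.042). All of them were lower in every Palmul-tang library than in either Samul-tang library, and vehicle lay above both formulas. PAQR8, a membrane progestin receptor (chromosome 6, 52361421 to 52407777), had a log2 of -0.36 ± 0.063 (SE, adjusted p 0.00453). CEBPA was the only gene called of 18 tested liver transcription factors (0.0435% called lower over all genes). Without Samul-tang replicate 2, the adjusted p was 0.352 for SLC6A12, 0.469 for CEBPA, 0.703 for DKK1 and 0.114 for PAQR8. Without Samul-tang replicate 3 it was 0.0806, 0.0505, 0.194 and 0.089, and without Palmul-tang replicate 2 it was 0.0894, 0.0529, 0.138 and 0.0608. DKK1 was also lost without Palmul-tang replicate 1 or 3, at 0.0625 and 0.154.

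Several responses had no difference that passed at the high dose. No gene was called by edgeR or by DESeq2 among 25 tested NRF2 targets, the genes of oxidant and electrophile defence. At an unadjusted p under 0.05 there were 4 of the 25, with 1189 of 16083 over all tested genes. The median log2 difference of the 25 NRF2 targets was 0.004. NQO1, a quinone reductase, was at 727.1, 664.4 and 702.4 CPM with Palmul-tang, against 622.6 and 650.1 CPM with Samul-tang, a log2 of 0.13 (95% interval 0.01 to 0.25, adjusted p 0.613). HMOX1, which degrades heme, had a log2 of -0.08 (interval -0.21 to 0.06), and AKR1B10, an aldo-keto reductase, 0.04 (interval -0.09 to 0.17). SLC7A11, the cystine importer, had 0.14 (interval -0.07 to 0.36), HSPA1A, a heat shock protein with a near-identical copy, 0.12 (interval -0.01 to 0.24), and VEGFA, the vessel growth factor, 0.06 (interval -0.07 to 0.18). Among further genes, albumin (ALB) had -0.11 (interval -0.23 to 0.003), the metallothionein MT1X -0.13 (interval -0.42 to 0.16), the kinase SGK1 -0.12 (interval -0.30 to 0.06) and the kininogen KNG1 -0.34 (interval -0.54 to -0.14, adjusted p 0.232). The libraries of the formulas did not overlap in NQO1 and HSPA1A, with Palmul-tang above, or in ALB and KNG1, with Palmul-tang below. SGK1 was called lower with Palmul-tang at the medium dose (log2 -0.37, adjusted p 0.0181). These intervals bound the differences and do not show that the formulas act alike.

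Some lists without a called gene had many members on one side. Of 20 cytoskeleton and junction genes, such as those for tubulin and actin, 13 had every Palmul-tang library above Samul-tang and none below (65.0%, with 11.4% over all genes), and the median log2 difference was 0.11. Of 19 ER chaperone genes 8 lay above (42.1%, with 11.4% over all genes). Above too were 7 of 18 cytosolic aminoacyl-tRNA synthetases (38.9%) and 6 of 17 heat shock genes (35.3%). None lay below in any of these lists, and the list medians were 0.05 to 0.06. Of 42 ribosomal protein genes 13 lay below and none above (31.0%, with 11.6% over all genes), with a median of -0.10. Of 23 genes for secreted plasma proteins 9 lay below (39.1%) and none above. The ribosomal protein median was -0.17 with the medium dose and -0.10 with the low dose, and a trend of the list with dose was not tested. Members of a list share libraries and are not replicates, and none of these genes passed edgeR's test. At an unadjusted p under 0.05 there were 1189 of all 16083 tested genes. In these lists there were 6 of 20 cytoskeleton, 6 of 19 ER chaperone and 2 of 18 synthetase genes at that threshold. There were also 2 of 17 heat shock, 2 of 42 ribosomal protein and 2 of 23 plasma protein genes. DESeq2 called 1 gene of these lists, the ER chaperone HYOU1.

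**Figure D2:**
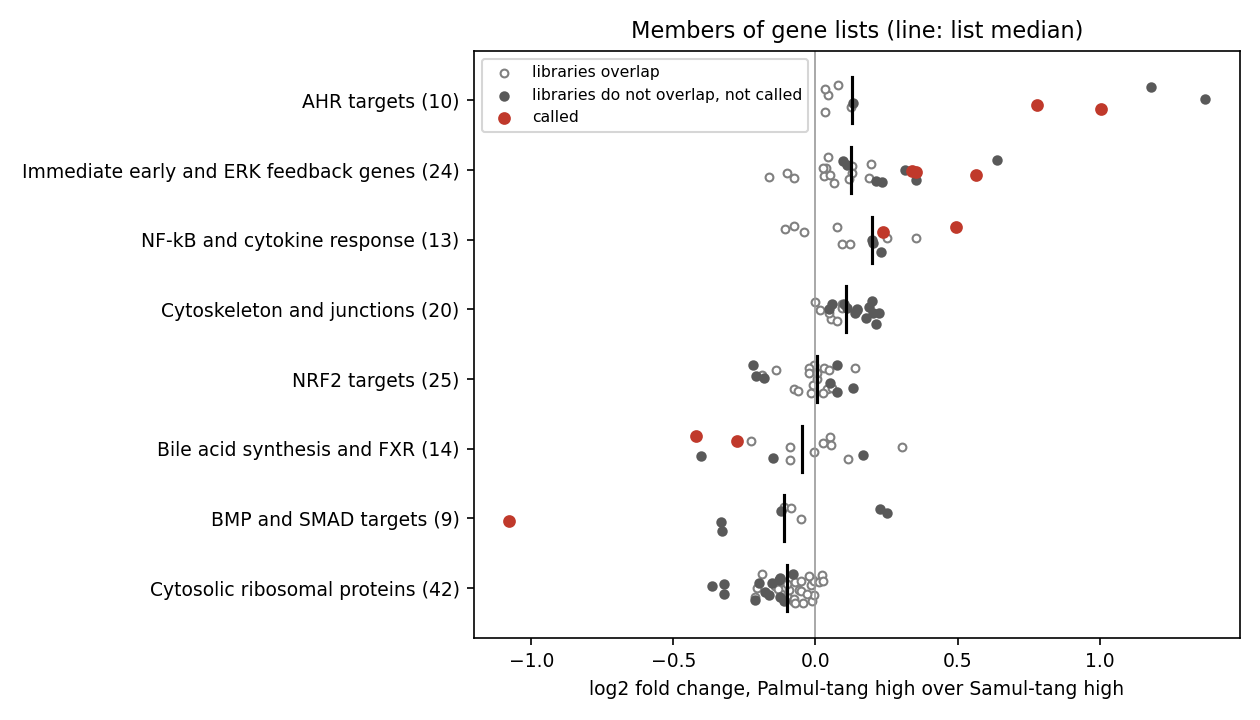
Log2 fold change of Palmul-tang high over Samul-tang high for the tested members of 8 gene lists (number of tested members after each name); red points passed the test, grey points had libraries that did not overlap but did not pass, open points had overlapping libraries, and the black line is the list median. The AHR, immediate early, NF-kB and cytoskeleton medians lie at 0.13, 0.12, 0.20 and 0.11, and that of ribosomal proteins at -0.10.

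The medium and low doses gave the same contrast between other libraries, though with the same split of label prefixes and with the spread taken from the same fit as at the high dose. At the medium dose 241 genes passed (1.5%), 170 of them higher with Palmul-tang (1.06%) and 71 lower (0.441%). That count was 2336 without Samul-tang medium replicate 3, which stood apart with mitochondrial transcripts at 11.2% of counts, 55 without Samul-tang medium replicate 2, 595 without Palmul-tang medium replicate 1, 99 without replicate 2 and 67 without replicate 3. Of the 30 genes called at the high dose, 9 were called the same way at the medium dose, which is 30% of the high-dose calls and 3.73% of the medium-dose calls. Among them were EGR1 (log2 0.59 ± 0.09 SE, adjusted p 0.000415), SLC16A6 (0.43), NEDD9 (0.37), ERRFI1 (0.29), AKAP12 (0.24), DUSP6 (0.23), TRIB1 (0.23) and ITGA2 (0.22). Of the 23 higher genes 21 were above 0 at the medium dose, and of the 7 lower genes 6 were below it, while 56.8% of all tested genes had the same sign at both doses.

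At the low dose no gene passed with edgeR (0%), 910 had an unadjusted p under 0.05, and DESeq2 called 6. The median log2 difference of the 23 higher genes was 0.063 with 20 and 0.222 with 100 µg/mL. That of the 7 lower genes was -0.146 with 20 and -0.183 with 100 µg/mL. At the low dose 18 of the 23 higher genes were above 0 and all 7 lower genes below it. Over all tested genes, 59.4% had the same sign at the low and high doses. In 9 of the 23 higher genes every Palmul-tang low library was above Samul-tang low (9.52% over all genes). In 3 of the 7 lower genes every one was below (13.4% over all genes). EGR1 was at 23.6, 20.5 and 24.5 CPM with Palmul-tang low and at 15.998 and 19.6 CPM with Samul-tang low, with a log2 of 0.35 (adjusted p 0.661). The formulas thus did not overlap in EGR1 at any dose. Likewise Palmul-tang was above Samul-tang at every dose in SLC16A6, DUSP6, NEDD9, ERRFI1, TRIB1 and PVR, and below it in SLC6A12. All of these were chosen from genes called, and so apart, at the high dose. The share of all tested genes apart at every dose was not counted. At the medium dose alone, 11.4% of all genes had every Palmul-tang library above Samul-tang and 12.3% every one below. EGR1 passed at the medium and high doses only. Its change with dose was not shown to differ between the formulas (log2 0.21 ± 0.13 SE).

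**Figure D3:**
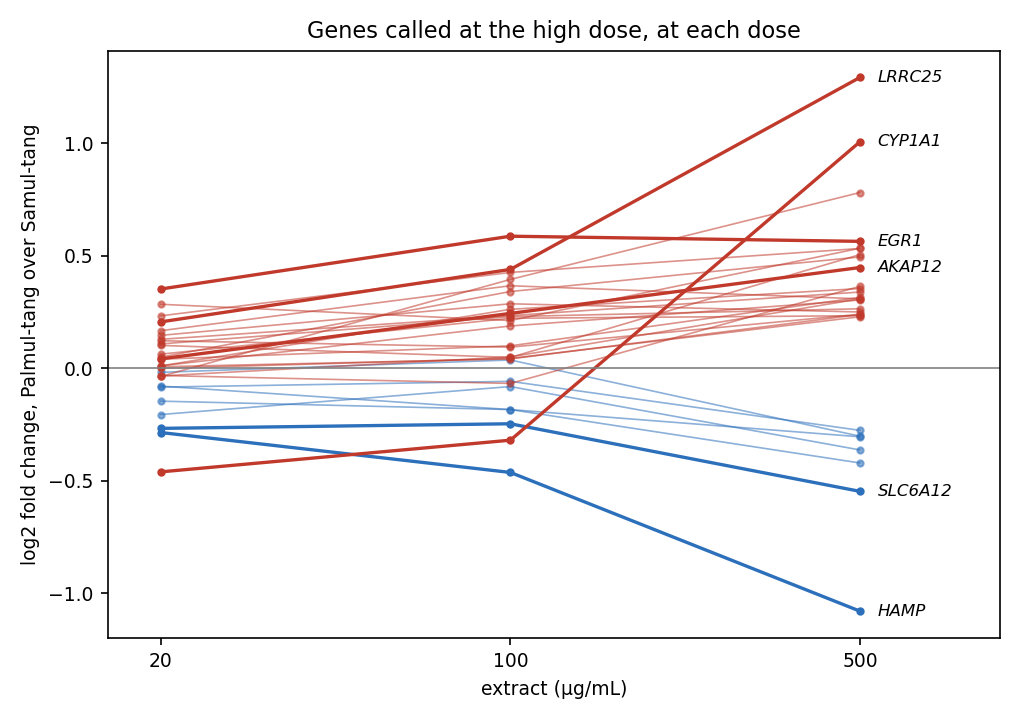
Log2 fold change of Palmul-tang over Samul-tang at 20, 100 and 500 µg/mL for 29 of the 30 genes called at the high dose; each line is 1 gene, red if higher and blue if lower at 500 µg/mL, with selected genes thicker and named. CYP1A1 goes from -0.46 at 20 µg/mL to 1.01 at 500 µg/mL, while EGR1 lies at 0.35, 0.59 and 0.56.

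The rise from low to high dose was compared between the formulas, a contrast from which a constant offset between library sets drops out. Palmul-tang and Samul-tang differed in 2 genes (0.0124%), CYP1A1 and AKAP12, both steeper with Palmul-tang. CYP1A1 was at 16.6, 18.0 and 16.2 CPM with Palmul-tang low and at 23.2 and 23.4 CPM with Samul-tang low. At the medium dose it was at 37.9, 36.0 and 37.5 CPM against 47.2 and 45.3 CPM. Palmul-tang was thus below Samul-tang in every library at the lower doses and above it at the high dose, although neither of the lower doses passed (log2 -0.46 with adjusted p 0.214 at low, -0.32 with 0.0557 at medium). The difference in dose response was 1.47 ± 0.13 on the log2 scale (SE, adjusted p 9.2e-08). The single Sagunja-tang libraries were at 15.7 CPM at the low, 42.9 at the medium and 417.1 at the high dose.

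AKAP12 was at 172.3, 173.4 and 170.1 CPM with Palmul-tang low and at 174.6 and 159.6 CPM with Samul-tang low, so the formulas overlapped there. At the medium dose Palmul-tang was at 211.1, 216.6 and 223.3 CPM and Samul-tang at 173.9 and 192.9 CPM, no longer overlapping. The difference in dose response was 0.41 ± 0.073 (SE, adjusted p 0.0391). It was lost without Samul-tang high replicate 2 or 3 (adjusted p 1 and 0.0693), without Samul-tang low replicate 2 (1), without Palmul-tang high replicate 1 or 2 (0.144 and 0.174) and without Palmul-tang low replicate 1, 2 or 3 (0.138, 0.103 and 0.159). For AKAP12 the single Sagunja-tang libraries were at 192.4 CPM at the low, 221.6 at the medium and 288.0 at the high dose.

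**Figure D4:**
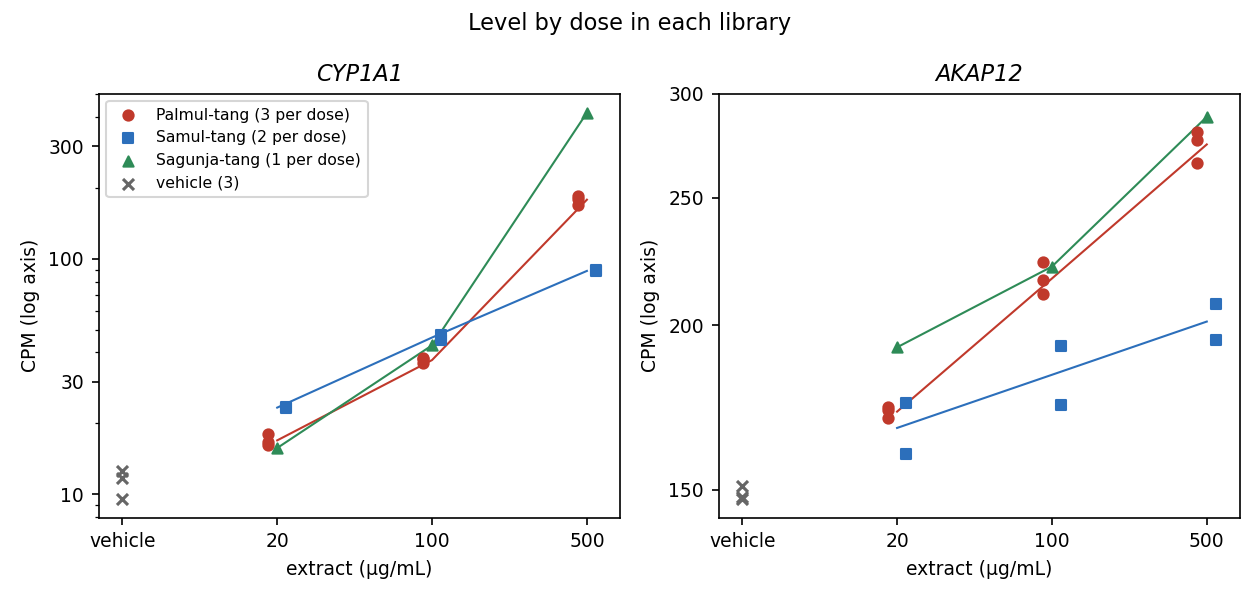
CPM of CYP1A1 and AKAP12 on log axes by extract dose in µg/mL, with vehicle at the left; each point is a library and lines join the means of each formula at a dose. CYP1A1 with Palmul-tang lies below Samul-tang at 20 and 100 µg/mL and above it at 500 µg/mL, and AKAP12 reaches 265.9 to 280.6 CPM with Palmul-tang high.

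The Sagunja-tang high library holds no replicate, so its levels carry no SD and no test, and its position against the others uses the same Palmul-tang and Samul-tang libraries that chose the genes. Its values fell on both sides of the Palmul-tang range. CYP1A1, SLC16A6, UGT1A1, LGALS3, SOS1, GDF15 and MBL2 were above every Palmul-tang library there, as given above. BIRC3 and FOSL2, at 10.02 and 17.2 CPM, were below every Palmul-tang library and above both Samul-tang libraries, and DUSP6, at 145.7 CPM, was within the Palmul-tang range. Among the 7 lower genes, SLC6A12, CEBPA and NR1H4 were at 5.87, 59.1 and 37.3 CPM, below every Palmul-tang library. SLC51B, PAQR8 and HAMP, at 7.78, 29.9 and 4.81 CPM, were above every Palmul-tang library. Of these, SLC51B lay between the Samul-tang libraries, PAQR8 below both and HAMP above both. DKK1, at 60.7 CPM, was within the Palmul-tang range.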

How the data were processed

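The deposited expected counts came from the authors' processing on builds named as hg38 and GRCh38, with RSEM 1.3.3, STAR 2.7.3a, Trim Galore 0.6.5 and FastQC 0.11.9, per the submitters' processing notes. The annotation release and the strand setting are not given in the sources used here. RSEM shares out ambiguous reads, which left 8.56% of values fractional, and all were rounded. The table's other 240 columns match none of the samples and were left unread. Genes were kept by filterByExpr (minimum count 10, minimum total 15), TMM factors came from all 30 libraries, and edgeR 4.0.16 (R 4.3.3) fitted 1 robust quasi-likelihood model to 27 libraries of 10 groups, leaving out Sagunja-tang (17 residual degrees of freedom, biological coefficient of variation 5.47%). The 4 comparisons were tested two-sided with Benjamini-Hochberg adjustment over 16083 genes and a threshold of 0.05. Standard errors are the absolute log2 fold change over the square root of F, and intervals are 95%. They cover the spread between these libraries.

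The members and the 50 gene lists (916 of 956 symbols matched) were chosen with earlier results of these data known. Named genes were up to 12 called genes each way by size, with a mean log2 CPM of at least 2 and no overlap, up to 4 called members of each list, up to 8 genes each way in dose response, and 15 genes always given, but 1 called gene is not reported here. A table of identifiers matched 56558 of 60675 rows. Replicate pairs varied 2.92 to 30.9 times as much as counting noise, and all were kept as separate libraries. Scripts were tested on simulated data. Alternatives tried were no filter, median-ratio factors, DESeq2 1.42.0, the compared groups alone, a replicate block, a GC and length offset, each library left out and, left out together, Samul-tang medium replicate 3 and Sibjeondaebo-tang low replicate 3. The medium dose in place of the low was added after seeing the data. The vehicle's DMSO percentage is the sample labels' value, since the series text differs.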

Additional observations from a re-analysis of the deposited data

Results flagged for a closer look

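CYP1A1 and AKAP12 differed between the formulas in their change from low to high dose, by a test of that difference itself. For CYP1A1 the rise with Palmul-tang exceeded that with Samul-tang by 1.47 on the log2 scale (95% interval 1.21 to 1.73). For AKAP12 the excess was 0.41 (interval 0.26 to 0.56). Its adjusted p was 0.0391 and its call was lost in 11 of the alternatives given below, while CYP1A1 passed in all 18. The test was made within label prefixes, since each formula's low and high libraries share one.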

How the results depend on the processing

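The high-dose count of 30 rested on the libraries and the filter. It was 261 with no filter on low counts (93 higher and 168 lower, 35.6% higher against 76.7%), 47 with DESeq2, 38 with the GC and length offset, 25 with the compared groups alone (64% higher, 16 of them among the 30) and 41 without Samul-tang medium replicate 3 and Sibjeondaebo-tang low replicate 3, and it ran from 2 to 21 when 1 library was left out. At the medium dose the count of 241 was 784 with no filter, 501 with DESeq2 and 12 with the compared groups alone (all higher, against 70.5%), and ran from 55 to 2336 when 1 library was left out. At the low dose the count of 0 was 157 with no filter, 10 with the compared groups alone and 6 with DESeq2, and ran from 0 to 1. The dose response count of 2 was 1 with median-ratio factors, 85 with no filter and 4 with the medium dose in place of the low, and ran from 1 to 2. CYP1A1 passed in all 18 alternatives of the dose response test. AKAP12 was lost in 11, with adjusted p of 0.0604 with median-ratio factors, 0.0923 with the compared groups alone and 0.467 with the medium dose in place of the low. DESeq2 gave no adjusted p for ALDH3A1, FICD, HAMP and LRRC25. The causes were not tested.

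With the replicate number as a block the high-dose count was 46 (26 higher and 20 lower, 56.5% higher), the medium-dose count 590, the low-dose count 0 and the dose response count 2. The same-numbered libraries had deviations correlated at -0.146 (high), -0.06 (medium) and 0.281 (low) over 7762 genes. Only replicates 2 and 3 are shared by the formulas, so each value is a single contrast and cannot show whether the numbers mark pairs. The labels do not say that they do, so the numbers were not taken as pairs.

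In 3 uncalled genes the sign turned when 1 library was left out. AKR1B10 ran from -0.0068 (without Palmul-tang replicate 3) to 0.103, with -0.0054 without Samul-tang replicate 2. HMGCS1 ran from -0.0414 to 0.025 (without Palmul-tang replicate 1), with 0.0028 without Samul-tang replicate 2. MT1X ran from -0.278 to 0.0444 (without Samul-tang replicate 3). Depth limits LRRC25, HAMP and CYP1A2, which lie near or under 2 CPM.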
